A study of Mus musculus with 2 samples.

Results

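The proneural basic helix-loop-helix (bHLH) genes examined were Neurog1, Neurog2, Neurog3, Neurod1, Neurod2, Neurod4, Neurod6 and Atoh1. They were taken by name, and all 8 were found among the 21225 protein-coding genes that had a value, of 48524 genes of all kinds. The cells were 46C embryonic stem cells of the mouse, a single line of strain 129P2/Ola grown with leukemia inhibitory factor and widely used for its fluorescent reporter at the neural gene Sox1. Cells took up 50 µM bromodeoxyuridine for 2 h and were sorted by DNA content, and labelled DNA from 10000 cells was enriched with an antibody and then, after amplification, sequenced as 1 early S phase and 1 late S phase library. The authors joined both libraries in a single score per genomic position, smoothed over 300 kb, so no value has a replicate, no test between conditions was possible and the read depth is unknown. Scores above 0 were read as early from the order named by the deposited table, and neither its unit nor its zero point is stated, which means that a score gives no fold difference. The score says when DNA is copied and not whether a gene is expressed, so the cell type could not be checked through its markers.

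Proneural factors are transcription factors that pair with E proteins, bind E-box DNA and turn dividing progenitors into neurons. In many neural tissues the neurogenins (Neurog genes) and Atoh1 act first and choose the fate, and the NeuroD genes follow as the neuron matures; Neurog3 and Neurod1 also build the endocrine cells of the pancreas. Progenitors hold them in check through Notch signalling, whose Hes and Hey targets repress proneural genes, and through Id proteins, which take away the E protein partner. Replication timing is a property of long chromosome domains, in which gene-rich, open chromatin is usually copied early in S phase and gene-poor chromatin late.

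The family was divided between early and late replication, with all 3 neurogenins early and the 4 NeuroD genes at both ends of the order. Neurod2, a factor of cortical neurons, had the highest score at 1.73. The neurogenins followed at 1.04 for Neurog3, 0.95 for Neurog2 and 0.89 for Neurog1. Atoh1, the factor of cerebellar granule cells and inner ear hair cells, lay just above 0 at 0.26. The other 3 NeuroD genes were late. Neurod4, a factor of retina and hindbrain, had -0.33, Neurod1 had -0.58, and Neurod6, a marker of maturing cortical pyramidal neurons, had -1.18. At their midpoints the neurogenins spanned 0.149 score units and the NeuroD genes 2.91. As means over the positions within 150 kb the neurogenins lay further apart, from 0.61 for Neurog1 to 1.13 for Neurog3 (a span of 0.522), and the NeuroD genes spanned 2.76.

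In all, 5 of the 8 genes lay above 0, against 73.5% of protein-coding genes and 43.1% of all positions. Their median was 0.58, beside 1.02 for protein-coding genes (quartiles -0.08 and 1.52). Above the autosomal median of -0.30 lay the same 5 genes, against 78.5% of protein-coding genes. With so few genes, this share is given as a description only. Neurod2 scored above 92.3% of protein-coding genes and Neurod6 above 6.40%. The neurogenins sat near the middle of all genes, above 45.8% (Neurog1), 47.8% (Neurog2) and 50.8% (Neurog3). Atoh1 was above 31.3%, Neurod4 above 21.0% and Neurod1 above 16.9%. Set against positions instead of genes, Neurod4 lay at the middle of the genome, above 50.0% of positions. Neurod1 was above 44.5% and Neurod6 above 24.5%.

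Because there are no replicates, the order was set against the spread of the 40 to 52 positions within 150 kb of each midpoint, which is a spread along the chromosome and not an experimental error. Positions around Neurod1 ran from -0.71 to -0.51, around Neurod6 from -1.26 to -0.91 and around Neurog3 from 1.04 to 1.27. These were the flattest surroundings (SD 0.0522, 0.115 and 0.0659). Around Atoh1 they ran from -0.62 to 1.05 (SD 0.474), around Neurog1 from -0.08 to 1.04 (0.376) and around Neurog2 from 0.07 to 1.06 (0.318). Neurod2 (1.36 to 1.89, SD 0.181) and Neurod4 (-0.33 to 0.29, SD 0.171) lay between. Neurog3 and Neurog2 differed by 0.091 and Neurog2 and Neurog1 by 0.058, both less than this spread, so the neurogenins are given no order among themselves. Every other step in the order exceeded the larger of the SDs. However, the range around Atoh1 overlapped those of its neighbours in the order, Neurog1 and Neurod4.

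**Figure D1:**
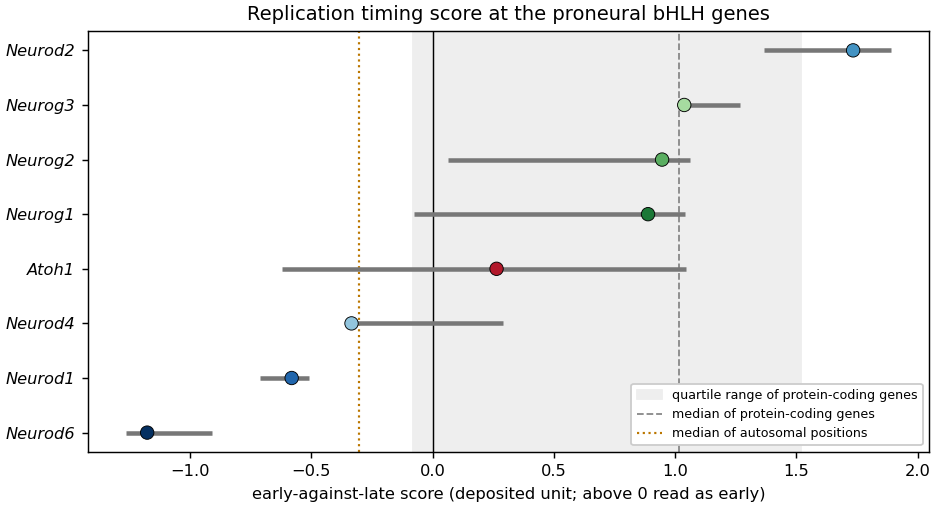
Early-against-late score (x axis, deposited unit) at the midpoint of each gene (points), with the lowest to highest score within 150 kb (grey bars); the shaded band and dashed line are the quartile range and median of protein-coding genes, and the dotted line is the median of autosomal positions. Neurod2 at 1.73 lies above the band and Neurod4, Neurod1 and Neurod6 below it, while the neurogenins lie near the dashed line.

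Neurog1 (chromosome 13, 56250478 to 56252180) lay on the falling edge of a gene-rich early domain. The domain, a run of positions above 0, reached 2.39 Mb from 53985049 to 56374964 and held 53 protein-coding genes, and the median over its positions was 1.42. Neurog1 was 124 kb from its upper edge and 854 kb from its highest point of 1.95. The upper score hovered near 0, and with the autosomal median as zero point that edge lay 498 kb away. On the lower side the score was 1.69 at 0.5 Mb and 1.43 at 1 Mb from the gene. On the upper side it was 0.03 at 0.3 Mb, -0.29 at 0.5 Mb and -0.62 at 1.5 Mb. The change within 150 kb was -3.55 per Mb, steeper than at 84.1% of protein-coding genes. The nearest genes shared its early side, with Tifab at 1.01 and the chemokine gene Cxcl14 at 0.50.

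Neurog2 (chromosome 3, 127632733 to 127635636) lay in a small early island between late domains. The island was 0.644 Mb long, longer than the domain of only 12.4% of protein-coding genes, and held 6 of them. It was bounded by late runs of 3.66 Mb (median -1.15) and 1.37 Mb (median -1.31). The score peaked at 1.06, 79.4 kb below Neurog2. Within 150 kb of the gene it changed by -3.25 per Mb, steeper than at 81.3% of protein-coding genes. It was -0.01 at 0.5 Mb below the gene and -1.31 at 0.5 Mb above it. Neurog2 scored 1.61 more than the mean of the positions 500 kb to each side, an excess larger than at 95.7% of 20767 protein-coding genes. Against the positions 300 kb to each side the excess was 0.938, larger than at 92.6%. Within 2 Mb 29.1% of positions were above 0, and Neurog2 was above 95.7% of them. Its nearest genes, the helicase gene Zgrf1 and the kinase gene Alpk1, had 1.04 and 0.41.

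Neurog3 (chromosome 10, 62133090 to 62134763) lay deep inside an early domain of 4.49 Mb with 62 protein-coding genes, 1468 kb from the nearer edge. It sat in a shallow dip there. Its score was 0.510 below the mean of the positions 500 kb to each side, and only 13.9% of protein-coding genes were lower against their flanks. Against the positions 300 kb to each side it was 0.252 below, with 19% of genes lower. Within 1 Mb all positions were early (100%), and Neurog3 was above only 5.95% of them. The score was 1.65 at 0.5 Mb below and 1.45 at 0.5 Mb above the gene. The next proneural-type gene on this chromosome was Atoh7, the factor of retinal ganglion cells, which lay 0.967 Mb above Neurog3 in the same early domain and scored 1.62.

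Atoh1 (chromosome 6, 64729125 to 64731245) lay on the steepest slope of the family, at the border of a long late run and an early island. It was 46.6 kb inside the early side, and only 7.28% of protein-coding genes lay nearer to a domain edge. The score changed by 5.39 per Mb within 150 kb, steeper than at 94.9% of protein-coding genes. It was -1.53 at 0.3 Mb below the gene and 1.37 at 0.3 Mb above it. The lower late run was 4.20 Mb long with a median of -1.28. The early island was 0.632 Mb long and held 3 protein-coding genes, Atoh1, the chromatin remodeller gene Smarcad1 at 1.24 and the prostaglandin synthase gene Hpgds at 1.13.

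Neurod1 (chromosome 2, 79452637 to 79456636) lay on a low crest inside a late domain. The domain reached 2.87 Mb from 77456467 to 80331250, with a median of -1.13 and 11 protein-coding genes. At 0.3 Mb below and above the gene the scores were -1.27 and -1.44, and Neurod1 at -0.58 was 0.773 above their mean, an excess larger than at 87.7% of protein-coding genes. Against the positions 500 kb to each side the excess was 0.738, larger than at 73.9%. The crest reached -0.51, 71.8 kb below Neurod1. Measured from the autosomal median, Neurod1 still had -0.28. Beside Neurod1 on the crest lay the ceramide kinase-like gene Cerkl at -0.51 and the integrin gene Itga4 at -0.69. Of the 15 other genes within 2 Mb 5 were above 0, all of them on the upper side, the nearest being Dnajc10 at 0.02, 880 kb away.

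Neurod2 (chromosome 11, 98325415 to 98329645) lay in a large early domain of 5.58 Mb with 152 protein-coding genes, 27.3 per Mb. The domain was longer than that of 86.1% of protein-coding genes. Within 1 Mb all positions were early (100%), with a median of 1.62. The score was 1.49 at 1 Mb below the gene and 1.81 at 0.3 Mb above it. Its nearest genes were the kinase gene Cdk12 at 1.36 and Gm33099 at 1.79. The early side ended 1056 kb above Neurod2 in a late run of 0.656 Mb, which fell in a stretch of keratin genes. Of 50 keratin and keratin-associated genes within 2 Mb, 32 lay below 0, with the lowest at -1.39.

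Neurod4 (chromosome 10, 130268152 to 130280254) lay in a shallow late run near the end of its chromosome. The last position of chromosome 10 was 0.273 Mb above it, so the upper profile could not be followed further. The run was 0.281 Mb long, shorter than the smoothing width, and its median was -0.26. Only 3.08% of protein-coding genes lay in a shorter run. Of the 101 other protein-coding genes within 2 Mb, 62 were olfactory or vomeronasal receptor genes, with a median of -0.67. Among them 14 lay above 0. The lowest point of the window, -1.63, lay 722 kb below Neurod4 among the olfactory receptor genes. Measured from the autosomal median instead of 0, Neurod4 had -0.03, so the size of its late score rests on the zero point.

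Neurod6 (chromosome 6, 55677818 to 55681263) lay 432 kb inside a late domain of 1.33 Mb with 8 protein-coding genes and a median of -1.11. Early runs of 0.845 Mb (median 0.52) and 0.414 Mb (median 0.63) bounded it. The scores were 0.32 at 0.5 Mb below the gene and -1.39 at 0.5 Mb above it. Its nearest genes were Adcyap1r1, a neuropeptide receptor gene, at -0.82 and Itprid1 at -1.07. Neurod6 and Atoh1 share chromosome 6 but lie 9.05 Mb apart in separate domains.

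**Figure D2:**
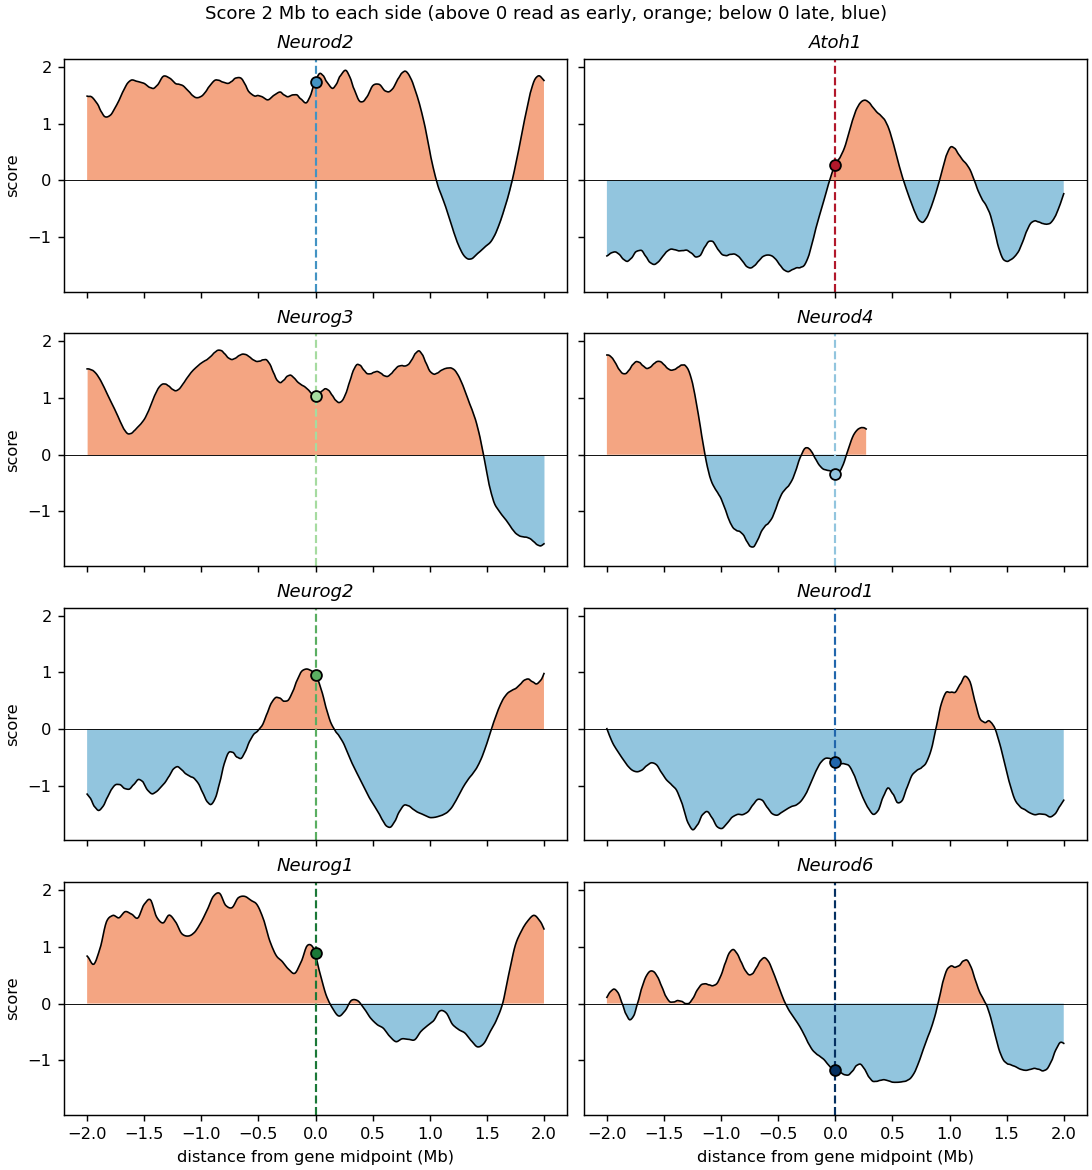
Score (y axis) against distance from the gene midpoint (x axis, Mb) for each gene, ordered by score down the left and then the right column; orange marks scores above 0, blue scores below 0, and the point is the gene. Neurog2 lies near the peak of a narrow early island, Atoh1 stands on a steep border, Neurod1 sits on a crest within a late domain and Neurog3 in a dip within an early domain.

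The 8 genes thus differed in where they sat within their domains as well as in score. A domain edge lay within 200 kb of 4 of them, Atoh1 (46.6 kb), Neurod4 (94.6 kb), Neurog1 (124 kb) and Neurog2 (162 kb). With the autosomal median as zero point only Atoh1 (86.8 kb) and Neurod4 (20.1 kb), 2 of the 8, were that near, since Neurog1 was then 498 kb and Neurog2 254 kb from an edge. With runs under 300 kb joined there were 3, as Neurod4 was then 273 kb from an edge. At the deposited zero point the other 4 were deeper, at 432 kb for Neurod6, 877 kb for Neurod1, 1056 kb for Neurod2 and 1468 kb for Neurog3. At that zero point protein-coding genes had a median edge distance of 463 kb (quartiles 190.4 and 1027). No such background was computed for the moved zero point or the joined runs. Similar scores at the gene did not mean similar surroundings. Neurog2 and Neurog3 differed by 0.091 at their midpoints, but the root mean square difference of their profiles over 2 Mb to each side was 2.16. Over the 28 pairs the most alike were Neurod1 and Atoh1 (0.936), and the least alike were Neurod1 and Neurod2 (2.47). Profiles were compared in the direction of the chromosome, without turning them by strand.

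The 8 genes were also set against protein-coding genes on other chromosomes, by the same root mean square difference over 401 points at 10 kb steps (228 for Neurod4). The closest profile to that of Neurog3 belonged to Fchsd2 (0.268) and the closest to Neurog1 to Ramp3 (0.474). Mbtps2 was closest to Neurog2 (0.416), Arsj to Neurod1 (0.433), Adnp to Neurod2 (0.331), Cadm1 to Neurod4 (0.283), Pcsk5 to Neurod6 (0.459) and Dis3 to Atoh1 (0.407). The second closest were Jaml, Tmem98, Yy2, Cep44, Dpm1, Filip1, Exosc9 and Bora in the same order. The median difference over the genes compared was 1.42 to 1.70. These are the smallest of at least 17770 differences for each gene. They take in the level of the score as well as its shape. At the gene itself the scores could be close, as for Fchsd2 (1.06) and Neurog3 (1.04), or apart, as for Ramp3 (1.86) and Neurog1 (0.89).

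Several proneural genes have neighbours that are paralogs of each other, so that related genes could be compared at different sites. Near the late genes Neurod1 and Neurod6 these paralogs lay inside the same late runs, so they were late by definition. Of the other genes within 2 Mb, a window that reaches beyond these runs, 5 of 15 at Neurod1 and 21 of 47 at Neurod6 were above 0. The calcium-dependent phosphodiesterase genes Pde1a, 561 kb from Neurod1, and Pde1c, 682 kb from Neurod6, had -1.30 and -1.25. Itprid2 beside Neurod1 had -0.86, Itprid1 beside Neurod6 -1.07, and Tespa1, which belongs to the same family, -0.16 beside Neurod4. The phosphatase inhibitor genes followed their separate sites. Ppp1r1c, 309 kb from Neurod1, had -1.45 and Ppp1r1b, 25.6 kb from Neurod2, had 1.87.

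The neurogenins shared such neighbours too. Tifab, 75.0 kb from Neurog1, had 1.01, while Tifa, 159 kb from Neurog2, lay at the island's edge with 0.004. The macroH2A histone variant genes Macroh2a1 near Neurog1 and Macroh2a2 near Neurog3 had 0.65 and 1.46. Fam241b, 24.6 kb from Neurog3, had 1.07, while Fam241a, 249 kb from Neurog2, had -0.26. These families were picked after their values had been seen. Genes closer than 300 kb share reads through the smoothing and are not separate measurements.

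Proneural genes with few and with many neighbours were found on both sides of 0. Within 500 kb of the midpoint lay 2 other protein-coding genes for Atoh1, 4 for Neurod1, 6 for Neurod6, 7 for Neurog2, 12 for Neurog1, 17 for Neurog3, 25 for Neurod4 and 32 for Neurod2. The median over all genes with a promoter sequence was 15. Among the 431 protein-coding genes with 2 such neighbours the quartiles were -1.10 and -0.07, and Atoh1 at 0.26 was above 84.5% of them. Neurod4 stood on the other side. Among 382 genes with 25 neighbours the quartiles were 0.91 and 1.63, and Neurod4 was above only 12.6%. However, most of the 25 neighbours of Neurod4 were olfactory or vomeronasal receptor genes, and scored positions ended 0.273 Mb above it. Neurod6 was above 4.82% of the 809 genes with 6 neighbours. Neurod1, Neurog1, Neurog2 and Neurog3 lay inside the quartiles of their groups, and Neurod2 lay above them.

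**Figure D3:**
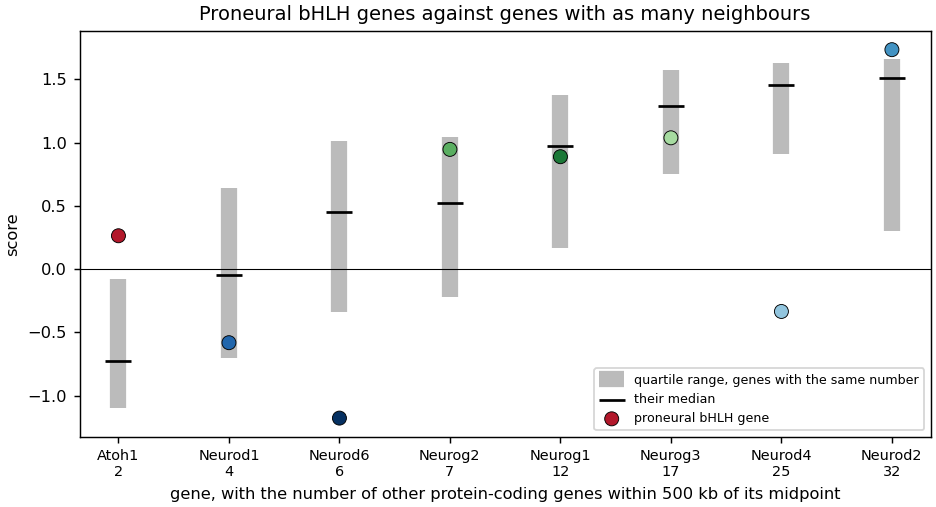
Score (y axis) of each proneural gene (points) beside protein-coding genes with the same number of other genes within 500 kb (grey bars, quartile range; black marks, median); the number stands under each name. Atoh1 and Neurod2 lie above their grey bars, Neurod6 and Neurod4 below. Most neighbours of Neurod4 are olfactory or vomeronasal receptor genes.

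The starts of the genes differed in base composition, and CG-rich starts were found at early and at late genes. RefSeq promoter sequences (build GRCm38.p6) were matched for all 8 genes and for 17030 of the 21225 protein-coding genes. The 250 bases before the transcription start were searched for CG steps, the sites of DNA methylation in mammals, which read the same on both strands. All protein-coding genes with 0 to 4 steps had a median score of 0.014, and those with 20 or more had 1.31, with 50.3% and 86.6% above 0. At least 10 steps were found in 51.6% of these promoters. Neurog1 had 29 CG steps, Neurod1 22, Neurog3 18, Atoh1 14, Neurod2 11, Neurog2 8, Neurod6 3 and Neurod4 2. The 4 sequences below are those of the earliest gene (Neurod2), the latest (Neurod6) and the genes with the most CG steps, Neurog1 and Neurod1, which lay on opposite sides of 0. They run 5′ to 3′ on the gene's strand, with CG in capitals.
Neurod2 (chr11:98329646-98329895, minus strand): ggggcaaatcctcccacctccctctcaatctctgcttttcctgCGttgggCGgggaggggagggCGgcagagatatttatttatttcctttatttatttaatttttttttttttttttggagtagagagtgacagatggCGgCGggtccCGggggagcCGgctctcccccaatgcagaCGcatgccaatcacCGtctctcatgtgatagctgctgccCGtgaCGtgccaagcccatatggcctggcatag
Neurog1 (chr13:56252181-56252430, minus strand): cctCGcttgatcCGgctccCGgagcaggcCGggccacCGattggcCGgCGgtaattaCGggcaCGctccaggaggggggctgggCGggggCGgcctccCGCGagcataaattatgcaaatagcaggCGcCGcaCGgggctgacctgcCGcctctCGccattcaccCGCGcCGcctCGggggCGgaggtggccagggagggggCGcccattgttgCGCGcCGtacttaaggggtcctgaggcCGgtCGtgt
Neurod1 (chr2:79456637-79456886, minus strand): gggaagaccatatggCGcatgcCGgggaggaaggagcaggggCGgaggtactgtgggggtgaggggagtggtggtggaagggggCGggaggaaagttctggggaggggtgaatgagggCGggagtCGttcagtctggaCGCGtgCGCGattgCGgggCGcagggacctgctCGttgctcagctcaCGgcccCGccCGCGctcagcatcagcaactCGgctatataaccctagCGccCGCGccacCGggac
Neurod6 (chr6:55681264-55681513, minus strand): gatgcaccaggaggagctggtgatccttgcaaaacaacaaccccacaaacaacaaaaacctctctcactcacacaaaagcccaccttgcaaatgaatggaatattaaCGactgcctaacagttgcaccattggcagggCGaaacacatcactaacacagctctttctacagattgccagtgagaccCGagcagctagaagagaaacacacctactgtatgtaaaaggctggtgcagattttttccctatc

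Neurod1 and Neurog1 thus both have CG-rich starts (GC content 67.6% and 71.2%) but scored -0.58 and 0.89. Among the 4028 genes with 20 or more CG steps the lower quartile of the score was 0.61, which lies above Neurod1. Neurod6, the latest of the 8, had 46.0% GC and 3 steps, and its class had quartiles of -0.89 and 1.15. Neurod2, the earliest, had 11 steps and 52.8% GC, close to the medians over all promoters of 10 and 55.6%. Across 17030 genes Spearman's rho between CG number and score was 0.36. It is given as a description, since neighbouring genes share the same smoothed score.

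**Figure D4:**
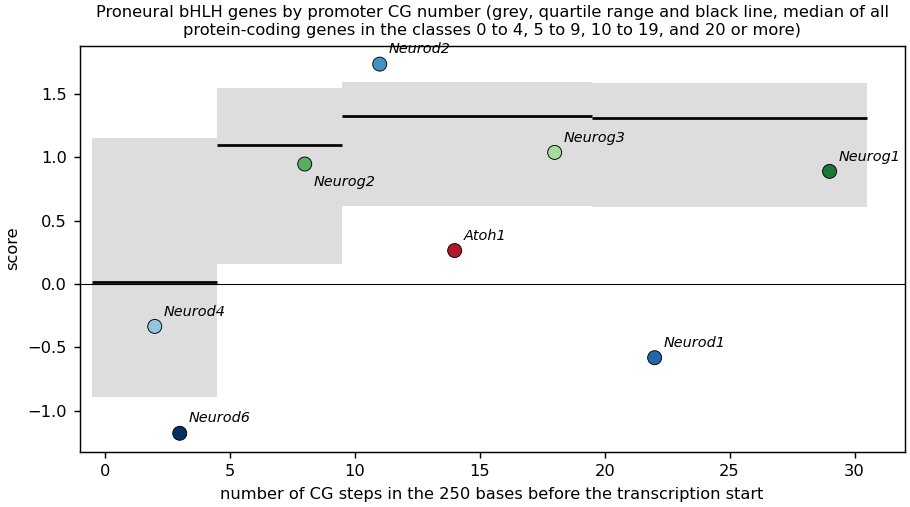
Score (y axis) against the number of CG steps in the 250 bases before the transcription start (x axis) for the 8 proneural genes (points); grey bands and black lines are the quartile range and median of all protein-coding genes in 4 classes of CG number. Neurod1 with 22 steps, Atoh1 with 14 and Neurod6 with 3 lie below the bands of their classes, and Neurod2 with 11 lies above its own.

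Of the 60 other genes of the pathway lists 46 (76.7%) lay above 0, near the 73.5% of protein-coding genes. All 9 Hes and Hey genes lay above 0, with a median of 1.34. Hes3 (1.77) and Hes2 (1.74) were the highest, and Hey2 (0.50) and Hey1 (0.03) the lowest. Of 9 Notch receptor and ligand genes 7 lay above 0, with a median of 1.35. The ligand gene Dll4 (1.70) and the receptor gene Notch3 (1.69) led, and Notch2 (-0.16) and the ligand gene Jag1 (-1.02) were below 0. Notch2 was above the autosomal median. Of 7 genes of E proteins and Id inhibitors 6 lay above 0, with a median of 1.04. The inhibitor gene Id1 had 1.69 and the E protein gene Tcf3 1.61, Id4 had 0.26, and Tcf4, another E protein gene, was late at -0.54.

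Neural bHLH genes outside the 8 also lay on both sides of 0. Of 12 such genes 7 lay above 0 (58.3%), with a median of 0.32, beside 62.5% and 0.58 for the 8 and 73.5% and 1.02 for protein-coding genes. Bhlhe23 (1.74) and Nhlh1 (1.64) were the highest, and Bhlhe22 (-1.09) was among the lowest. Of 20 genes known downstream of proneural factors 15 lay above 0, with a median of 0.64. Among these, Dll1 and Dll3 are also in the Notch list and Hes6 in the Hes and Hey list, all above 0. The homeobox gene Barhl1 had 1.54 and the GTPase gene Rnd2 1.53, while Pou4f1 (-0.67), a factor of sensory neurons, and Dcx (-0.80), a microtubule protein of migrating neurons, were the latest. Of 6 genes of the REST complex, which silences neuronal genes outside neurons, 5 lay above 0, with a median of 1.55. Rcor1 (1.84) and Sin3a (1.60) were the highest, and Rest had 1.37 and Hdac2 -0.58. No difference between these lists was tested.

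**Figure D5:**
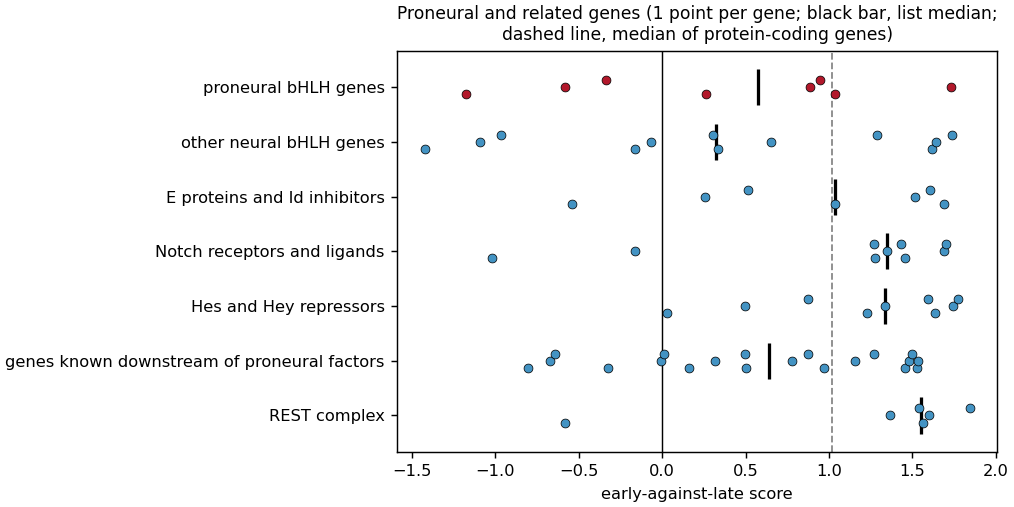
Score (x axis) of each gene (1 point each) in the proneural family and 6 related lists; black bars are list medians, the solid line is 0 and the dashed line is the median of protein-coding genes, 1.02. The proneural and other neural bHLH genes spread over both sides of 0, while all 9 Hes and Hey genes lie above it.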

How the data were processed

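Reads were aligned with Bowtie2 to mm10, per the submitters' processing notes. The authors deposited a score per position that sets the early against the late library, smoothed over 300 kb. Read counting, scaling, log base and zero point are not stated there, and the depth, and so the precision, is unknown. Of 384798 positions, 4 had no value. There were 0 unused columns of per-sample values.

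Genes came from a RefSeq table of GRCm38.p6, whose chromosomes are those of mm10. It listed 348 scaffold genes under chromosome names, which were left out. A gene took the position nearest its midpoint, at most 100 kb away (390 to 2824 bp for the 8). Domains were runs on the same side of 0, ended by gaps over 300 kb. Profiles were read at 10 kb steps. The scripts were tested on simulated profiles. Named genes were the 8, their nearest neighbours, the 2 highest and 2 lowest of each list and the closest profiles. Some genes that this rule names are not reported here. Other named genes, the comparison with flanking positions at 300 and 500 kb and the comparison of promoters by CG number were chosen after values were seen. The 8 genes and the lists were chosen with earlier results of these data known. Alternatives moved the zero point to the autosomal median, used the transcription start or the mean within 150 kb, joined runs under 300 kb, and changed window and list rules. Python 3.11.15, numpy 2.4.6, pandas 2.3.3 and scipy 1.17.1 were used.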

Additional observations from a re-analysis of the deposited data

How the results depend on the processing

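The number of proneural genes above 0 was 5 under each alternative run. These were the autosomal median (-0.30) as zero point, the transcription start, the mean within 150 kb and positions at most 10 kb away. The 10 kb limit could not change any score, because the position used for every gene already lay nearer than that. The transcription start moved Neurog1 from 0.89 to 0.84 and Neurod2 from 1.73 to 1.76, and the other genes less or not at all. It lay well inside the 300 kb smoothing, so it was a weak check of the count. No gene changed sign, though Neurod4 was -0.03 with the moved zero point and -0.19 as the mean within 150 kb, and Neurog1 was 0.61 as that mean. The run holding Neurod4 was 1.41 Mb after runs under 300 kb were joined and 0.046 Mb with the moved zero point. The median share of positions above 0 was 51.4% in windows of 2 Mb to each side, 35.0% at 1 Mb, 52.8% at 3 Mb and 62.0% with the moved zero point. With that zero point 9 of 12 other neural bHLH genes (75%) were above it, beside 78.5% of protein-coding genes. The smoothing, the single pair of libraries and the unknown depth limit every value. No paired analysis was possible because both libraries enter a single score and no test was run.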
